A study of Mus musculus with 4 samples.

Results

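The genes described here are 10 genes commonly used to recognise macrophages, C1qa, C1qb, C1qc, Laptm5, Csf1r, Lyz2, Cd68, Adgre1, Cd14 and Ptprc, measured in the testes of hypogonadal (hpg) mice on 4 one-colour oligonucleotide arrays. They were taken as every probe set (a group of short probes that together report 1 transcript) whose only listed gene symbol was one of these names, which gave 18 probe sets for 10 of the 8251 genes so named on the array. A further 1 probe set that lists Lyz2 beside a second symbol was left out. All animals carried the hpg mutation, which removes gonadotropin-releasing hormone, and all were pretreated with testosterone propionate (an ester of testosterone for injection) before it was withdrawn; 3 of the 4 labels give 2 weeks for that first treatment, and that of T+T replicate 1 gives none. The T+O group is 1 array and its description ends with the withdrawal. The T+T group is 3 arrays. Its replicate 1 is described as treated again for 4 hours, while replicates 2 and 3 are described with the withdrawal only and are placed in T+T by their titles. Neither age, strain nor any pooling of animals is given in the labels. The labels do not say that each array holds a separate animal, so p-values measure only the spread between these arrays, which may be technical.

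Macrophages are the most abundant leukocytes of the testis and lie in the interstitium beside the Leydig cells, which make testosterone, and around the tubules. Their survival depends on CSF1, which acts through the receptor encoded by Csf1r. They are known in this tissue for keeping an immune-tolerant state and for close contacts with Leydig cells, and their numbers are known to depend on pituitary gonadotropins, which are low in hpg mice. In a bulk sample, fewer macrophages and less RNA per macrophage cannot be told apart.

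Signals were scaled so that all arrays had a common trimmed mean, and the differences below are on the scale log2(scaled signal + 9.78), where the added offset is the 25th percentile of scaled signals and shrinks differences at low signal. Those kept for testing had a mean over the 4 arrays above 22.7, the 40th percentile. This left 7453 of 12422 probe sets, and 10 of the 18 macrophage probe sets, covering 8 genes. Adgre1 and Ptprc had no kept probe set.

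None of the 10 kept macrophage probe sets differed between T+T and T+O in limma at an adjusted p of 0.05, where 0.0268% of all kept probe sets were called higher and 0% lower. The adjusted p-values of the 10 lay between 0.69 and 1.0 in limma, and none had an unadjusted p under 0.05, against 7.8% of all kept probe sets. In 3 of the 10, namely those of C1qa, Laptm5 and Csf1r, all 3 T+T arrays lay above the T+O array, against 29.5% of all kept probe sets. In 1, a C1qb probe set, all 3 lay below it, against 23.7% of all. The median difference over the 10 was 0.19, against 0.026 over all 7453 kept probe sets. No macrophage probe set was at least 1.5-fold to one side of T+O on all 3 T+T arrays, against 1.84% of all that were so far above and 2.23% that were so far below. The counts on either side of T+O give no result about the macrophage genes beyond these shares.

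The widest gaps between groups were those of C1qa and Laptm5, whose intervals still include 0. C1qa encodes the A chain of C1q, the recognition molecule that starts the classical complement pathway and is made in tissues mainly by macrophages. Its probe set had a scaled signal of 63.1 on T+O and of 80.1, 95.3 and 108 on T+T replicates 1, 2 and 3. Every T+T array was above the T+O array, and the replicate 3 array was the highest. The T+T mean was 94.4 ± 14.0 (SD, n = 3), and the difference was 0.51 with a 95% interval from -0.06 to 1.08 (limma, adjusted p = 0.69). Among the array's controls, 3 genes are probed at both transcript ends as a measure of RNA integrity and labelling. The 3′ over 5′ signal of Gapdh was 1.20 on T+O against 0.844 ± 0.039 (SD, n = 3) on T+T, that of the Pcx control 3.76 against 1.90 ± 0.12, and that of Actb 1.53, inside the T+T range of 1.17 to 1.66. So 2 of the 3 controls separated T+O from T+T. Their part in these differences was not tested.

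C1qb and C1qc encode the other chains of the same protein, and all 3 chains are needed for a complete molecule. The brighter C1qb probe set was nearly level, at 56.2 on T+O and 52.4, 52.0 and 53.0 on T+T replicates 1, 2 and 3. All 3 T+T arrays were just below T+O, by -0.085 on the log2 scale with a 95% interval from -0.67 to 0.50. The second C1qb probe set, whose suffix _i marks an incomplete probe group, read 41.5 on T+O and 50.3, 30.4 and 68.2 on the T+T arrays. There the T+O array lay inside the T+T range, and the mean difference of 0.16 became -0.063 without T+T replicate 3. C1qc had 96.9 on T+O and 50.1, 103 and 123 on T+T replicates 1, 2 and 3. Its T+T replicate 1 array was the lowest of all 4, at -0.83 from T+O, and the mean difference of -0.14 became 0.20 without that array. The 3 chains therefore did not keep 1 order over the arrays: on T+T replicate 1, C1qa was 0.30 above T+O while C1qc was 0.83 below it, and on replicate 3 both were above, by 0.69 and 0.32.

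**Figure D1:**
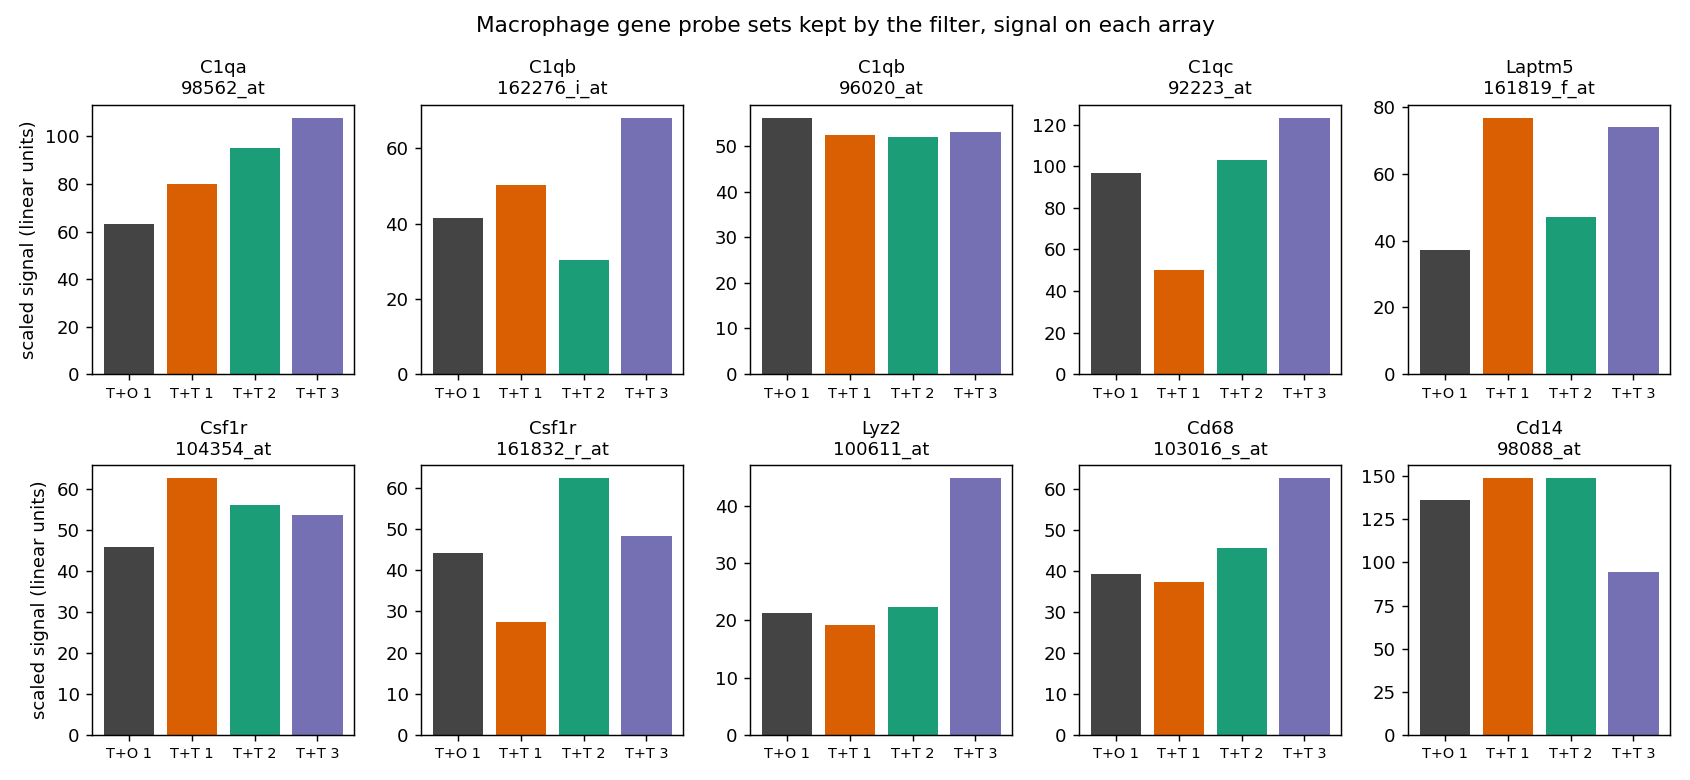
Scaled signal (linear units, vertical axis from 0) of the 10 kept macrophage probe sets, 1 panel each, with 1 bar for each array (T+O 1, then T+T replicates 1, 2 and 3). No panel has an error bar because each bar is 1 array; C1qa, the Laptm5 probe set and 1 Csf1r probe set have all 3 T+T bars above T+O, and T+T replicate 3 is the highest bar in 5 of the 10 panels.

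The sequences in front of C1qb, C1qc and Laptm5 are shown because these genes lie at both ends of the range of differences. PU.1, the product of Spi1, is a transcription factor that many macrophage genes depend on, and it binds purine-rich sites around GAGGAA. A RefSeq table of build GRCm38.p6 held promoter windows for 6 of the 10 genes, 7 windows in all. Each sequence below is the 250 bases before the annotated start, 5′ to 3′ on the strand of the gene, with GAGGAA or its reverse complement in capitals. They lie at chr4:136886201-136886450 (C1qb, minus strand), chr4:136892915-136893164 (C1qc, minus strand) and chr4:130913066-130913315 (Laptm5, plus strand).
C1qb: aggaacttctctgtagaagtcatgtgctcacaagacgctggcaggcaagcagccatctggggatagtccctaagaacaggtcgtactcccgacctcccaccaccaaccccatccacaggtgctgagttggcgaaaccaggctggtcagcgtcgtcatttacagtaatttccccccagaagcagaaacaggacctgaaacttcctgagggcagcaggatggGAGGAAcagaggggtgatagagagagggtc
C1qc: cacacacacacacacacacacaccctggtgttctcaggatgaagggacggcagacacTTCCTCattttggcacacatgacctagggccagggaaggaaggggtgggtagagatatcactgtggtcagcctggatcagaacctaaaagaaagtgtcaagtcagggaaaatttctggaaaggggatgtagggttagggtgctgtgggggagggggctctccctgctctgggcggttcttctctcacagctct
Laptm5: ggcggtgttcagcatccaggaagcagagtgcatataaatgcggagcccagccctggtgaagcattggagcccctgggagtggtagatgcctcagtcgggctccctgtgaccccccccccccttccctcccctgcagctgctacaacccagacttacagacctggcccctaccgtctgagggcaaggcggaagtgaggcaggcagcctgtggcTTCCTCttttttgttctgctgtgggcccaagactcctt
The motif begins 30 bases before the start of C1qb in the sense direction, 193 bases before that of C1qc in the antisense direction and 38 bases before that of Laptm5 in the antisense direction. On either strand, 5 of the 7 macrophage windows held GAGGAA, against 23.3% of all 32851 windows of the same length. The longer GAGGAAG, which contains it, was in 2 of 7 against 10.6% of all windows, and TTGCNNAA, a C/EBP-type motif, in 1 of 7 against 9.56%. The motifs were chosen after matches in these windows had been seen, so the shares are a description. Spi1 itself had a scaled signal of 20.9 on T+O and 38.3, 22.0 and 25.6 on T+T replicates 1, 2 and 3, a difference of 0.30 (limma, adjusted p = 0.92).

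Laptm5, Lyz2 and Cd68 belong to the lysosome and secretory granules of phagocytes. Laptm5 encodes a lysosomal membrane protein of blood-derived cells that directs surface receptors to degradation. Its kept probe set had 37.3 on T+O and 76.9, 47.1 and 74.2 on T+T replicates 1, 2 and 3. All 3 T+T arrays exceeded T+O, with replicate 2 much nearer to it than the others. The difference was 0.66 with a 95% interval from -0.07 to 1.40 (limma, adjusted p = 0.69), the largest of the 10 kept probe sets. The suffix _f of this probe set marks a design shared within a sequence family. The other Laptm5 probe set was under the filter, at 19.6 on T+O and 20.0, 19.9 and 24.7 on T+T, so that it was level on 3 arrays and only slightly higher on T+T replicate 3.

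Lyz2 encodes the lysozyme of macrophages and neutrophils, which breaks bacterial cell walls. Its kept probe set had 21.3 on T+O and 19.2, 22.3 and 44.8 on T+T replicates 1, 2 and 3. A single array, T+T replicate 3, stood above the rest, and the other 3 all lay under the filter level of 22.7, so the probe set was kept through that array. The mean difference was 0.25 with a 95% interval from -0.80 to 1.31, and it became -0.028 without that array. Its second probe set was far under the filter and pointed the other way, with 5.58 on T+O and 2.42, 0.796 and 1.64 on T+T. With no filter the difference of this second probe set was -0.43 (limma, unadjusted p = 0.031, adjusted p = 0.64).

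Cd68 encodes macrosialin, a glycoprotein of the lysosomal membrane that is widely used to stain macrophages. Its kept probe set, whose suffix _s marks probes shared between similar sequences, had 39.3 on T+O and 37.2, 45.6 and 62.6 on T+T replicates 1, 2 and 3. T+O lay between the T+T arrays, and T+T replicate 3 was the highest. The difference was 0.22 with a 95% interval from -0.53 to 0.98. The second Cd68 probe set was under the filter and pointed the other way, with 12.7 on T+O and 1.73, 3.58 and 2.26 on T+T. With no filter its difference was -0.87 (limma, unadjusted p = 0.0034, adjusted p = 0.54). The probe sets of this gene therefore give no common direction.

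Csf1r encodes the receptor tyrosine kinase through which CSF1 and IL-34 keep macrophages alive. The brighter probe set had 45.8 on T+O and 62.6, 56.1 and 53.7 on T+T replicates 1, 2 and 3. All 3 T+T arrays were above T+O and close to each other, with a mean of 57.5 ± 4.59 (SD, n = 3). The difference was 0.27 with a 95% interval from -0.32 to 0.87 (limma, adjusted p = 0.87). The second probe set, whose suffix _r marks probes chosen after some design rules were dropped, spread more widely, with 44.1 on T+O and 27.5, 62.4 and 48.2 on T+T. Its difference was -0.001, and it became 0.26 without T+T replicate 1, the lowest array for this probe set and the highest for the other.

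Csf1, the ligand, had 60.7 on T+O and 97.1, 46.7 and 51.1 on T+T replicates 1, 2 and 3. Replicate 1 was high, the other T+T arrays were below T+O, and the difference was 0.023 (limma, adjusted p = 1.0). The array described as treated again for 4 hours was thus the highest of the 4 for the ligand and for the brighter Csf1r probe set. It was the lowest for the other Csf1r probe set, and each value is a single array. This array was the highest in 25.6% of all kept probe sets.

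Cd14, Adgre1 and Ptprc encode proteins of the cell surface. Cd14 is the co-receptor that hands bacterial endotoxin to the receptor TLR4. Its probe set had 136 on T+O and 149, 149 and 94.4 on T+T replicates 1, 2 and 3. T+T replicate 3 was here the lowest array, in contrast to C1qa, Lyz2 and Cd68, where it was the highest. The difference was -0.081 with a 95% interval from -0.74 to 0.58, and it became 0.12 without T+T replicate 3.

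Adgre1 encodes F4/80, an adhesion receptor whose antibody defines mouse tissue macrophages. One probe set had 5.49 on T+O and 4.60, 5.97 and 22.8 on T+T replicates 1, 2 and 3, and the other 0.457 on T+O and 1.73, 0.796 and 12.9. On both, T+T replicate 3 alone stood above the other arrays, which lay far under the filter level of 22.7. Ptprc encodes CD45, the tyrosine phosphatase carried by all nucleated blood cells. Its 3 probe sets read between 0.265 and 3.35 on all arrays, far under the filter level in both groups.

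**Figure D2:**
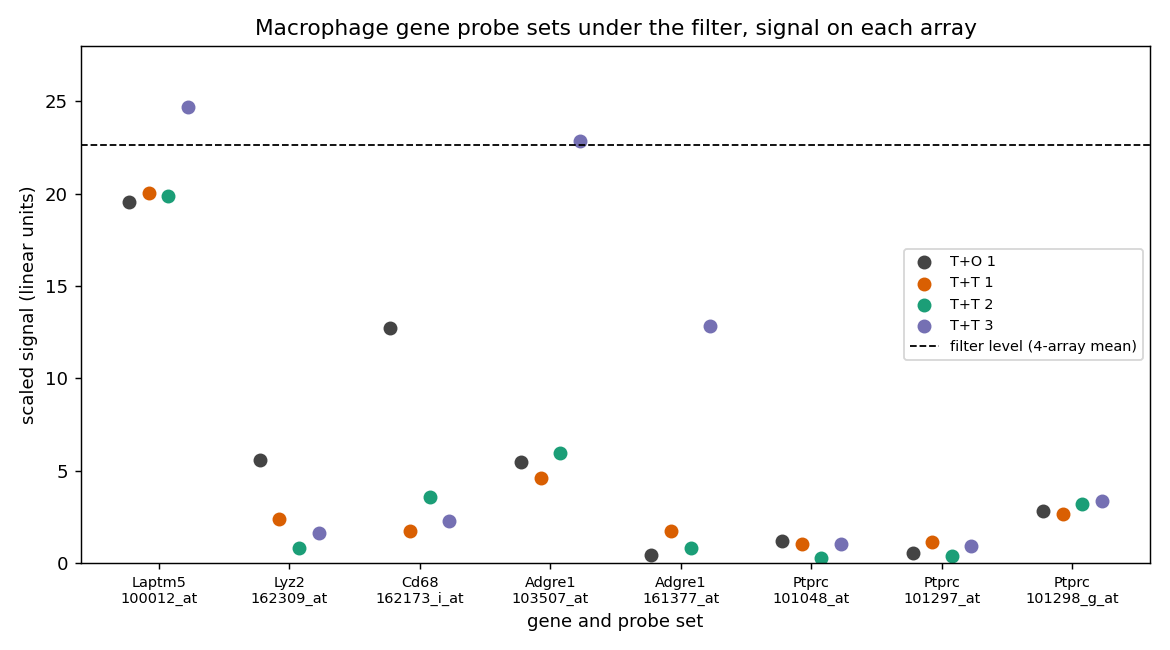
Scaled signal (linear units, vertical axis) of the 8 macrophage probe sets under the filter (horizontal axis, gene and probe set), 1 point for each array, with the filter level of 22.7 as a dashed line. The Ptprc points all lie at or below 3.35, and T+T replicate 3 is the only point above 10 for both Adgre1 probe sets.

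The name of the group was checked against further markers. Beside Ptprc and Adgre1, Itgam, which encodes the integrin CD11b, read between 3.72 and 4.83, and Mrc1, the mannose receptor of resident macrophages, read 15.2 on T+O and 15.3, 18.3 and 23.5 on T+T. The Fc receptor gene Fcgr3 had 8.23 on T+O and 7.71, 24.9 and 15.9 on T+T, and the adaptor gene Tyrobp 16.4 on T+O and 8.74, 12.3 and 21.2. These 4 genes did not pass the filter. Fcgr1 and Mertk did, at 19.9 on T+O against 36.9, 42.6 and 32.4, and at 17.7 against 26.8, 17.0 and 31.9. Both were under the filter level of 22.7 on T+O and were kept only through T+T arrays, Mertk through replicates 1 and 3. A second Fcgr1 probe set read only 4.12 to 6.08. Cd163 was not analysed here. Of the defining markers, Ptprc, Adgre1, Itgam and Mrc1 were thus under the filter. Beyond the 10 genes, 19 of 42 listed macrophage and myeloid genes with a probe set were kept, a lower share than the 5677 of all 8251 genes. The kept genes included, by their brightest probe sets, Aif1 at 632 to 929, Cyba at 86.5 to 134 and Mpeg1 at 44.1 to 75.1. Those not kept included Cd53 at 0.663 to 2.76, Siglec1 at 1.19 to 3.38 and Marco at 2.10 to 4.83. The 10 genes are called macrophage genes for their known expression, not because these arrays locate their signal in macrophages.

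T+T replicate 3 stood apart from the other T+T arrays for part of the group. It had the highest signal of the 4 arrays in 5 of the 10 kept macrophage probe sets, against 29.3% of all kept probe sets. Counted per gene, it was the highest array for 4 of the 8 macrophage genes, against 28.7% of all genes. Other lists had shares at least as high, such as Leydig (4 of 5), neutrophil (3 of 4), growth factor and chemokine (5 of 7) and complement genes (5 of 9). The share was 8 of 19 in other macrophage and myeloid genes, and 0 of 6 in B cell genes. Some of these genes were kept through this array or other T+T arrays, which tilts their counts upward. Star, a Leydig cell gene, was kept only through replicate 3. Csf2ra, Ccl6 and Ccl8 in the growth factor and chemokine list, and Mertk, were under the filter level on T+O. The Leydig cell gene Insl3 was nearly level on replicates 1 and 3. In these counts, high signal on this array was not particular to the macrophage genes. Set against T+O alone, 4 of the 10 were at least 1.5-fold higher on T+T replicate 3 (7.9% of all kept probe sets), 1 on replicate 1 (6.87%) and 0 on replicate 2 (6.37%). The 4 were C1qa, Laptm5, Lyz2 and a C1qb probe set. Lyz2 is in both probe set counts and in the gene count for replicate 3, and was kept only through that array. This tilts these counts, and the replicate 3 median given next, upward. The median difference of the 10 from T+O was 0.028 on replicate 1, 0.15 on replicate 2 and 0.44 on replicate 3, where the medians over all kept probe sets were 0.038, 0.015 and 0.038. Without replicate 3, the median of the 10 in the fit of T+T against T+O was 0.013 in place of 0.19. Each value by array is 1 array against 1 array, without a replicate check, and all 3 share the T+O array. The count for replicate 3 was 1 when the offset was the 50th percentile (3.52% of all), 2 under median scaling (5.22%), 3 under quantile normalization (6.13%), 5 with an offset of 1 (10.9%) and 5 on unscaled values (18.1%). This array also had the highest level as deposited, with a median of 48.3 against 25.4 to 37.5 on the others, and after scaling the 25th percentile of its signals was 10.7 against 9.02 to 9.79. The part of this level in the values was not tested.

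**Figure D3:**
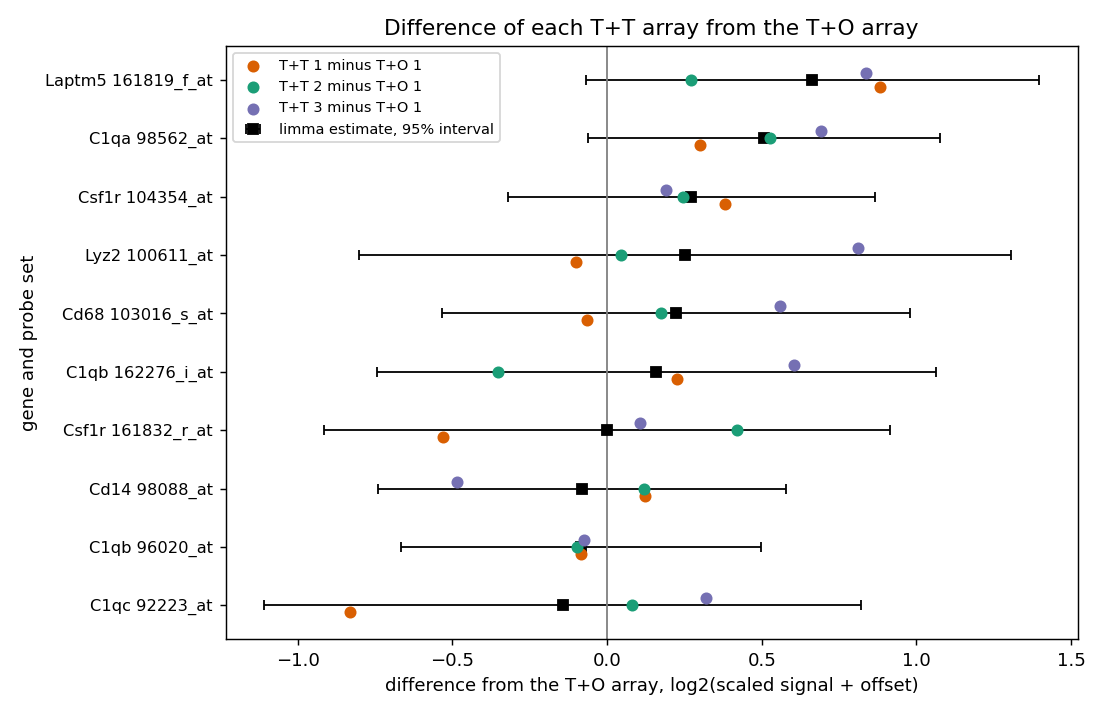
Difference from the T+O array on the scale log2(scaled signal + offset) (horizontal axis) for the 10 kept macrophage probe sets (vertical axis), with 1 coloured point for each T+T array and a black square with bars for the limma estimate and its 95% interval. All 10 intervals include 0, and the T+T replicate 3 points are the rightmost for C1qa, Lyz2, Cd68, C1qc and both C1qb probe sets.

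The T+O array and T+T replicate 1 alone have a title and a description that give the same arm. Between them, the 10 macrophage probe sets ranged from -0.83 for C1qc to 0.88 for Laptm5, with a median of 0.028. One probe set was at least 1.5-fold higher (Laptm5) and 1 at least 1.5-fold lower (C1qc), against 6.87% and 11.1% of all kept probe sets. This comparison has no replicate check.

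The descriptions allow a second reading, in which replicates 2 and 3 of T+T count as withdrawn and T+T replicate 1 stands against 3 arrays. None of the 10 macrophage probe sets passed in limma, with adjusted p-values between 0.92 and 0.99, and 0 of the 7453 kept probe sets passed while 380 had an unadjusted p under 0.05. The lowest value was that of C1qc, at -0.97 with a 95% interval from -1.55 to -0.39 (limma, unadjusted p = 0.0050, adjusted p = 0.92). T+T replicate 1 was below all other arrays in 4 of the 10 (C1qc, Lyz2, Cd68 and a Csf1r probe set), against 26.3% of all kept probe sets, and above all others in 3 (Laptm5, Cd14 and the other Csf1r probe set), against 25.6%, with Cd14 nearly level with replicate 2. The median over the 10 was -0.067 in this reading.

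Other genes of the same cells and pathways were taken from lists, each gene by its brightest kept probe set, and none of their genes passed the adjusted threshold in limma, as was so for 0 of all 5677 genes represented this way. At an unadjusted p under 0.05, limma gave 6 of the 120 genes of all lists, against 7.49% of all genes. Counted per gene, 29.1% of all genes had all 3 T+T arrays above T+O and 24.5% had all 3 below. Among 19 other macrophage and myeloid genes, 8 lay wholly above and 1 wholly below, with a median difference of 0.16 against 0.0197 over all genes. A gene under the filter level on T+O could be kept only through its T+T arrays, which tilts these counts upward, and 2 of the 8 were such genes. The ends of that list were Fcgr1, the high-affinity antibody receptor, at 0.66 and Cd52, a small leukocyte surface protein, at -0.29. Among 7 growth factor and chemokine genes, 4 lay wholly above and 0 below, with a median of 0.27, and 3 of the 4 were kept only through T+T. The lowest, Cx3cl1, a membrane-bound chemokine, had 64.0 on T+O and 78.3, 83.6 and 14.1 on T+T replicates 1, 2 and 3, a difference of -0.34, with replicate 3 far below the rest. The highest, Ccl8, a monocyte-attracting chemokine, had 11.6 on T+O and 12.9, 124 and 139 on T+T replicates 1, 2 and 3. It was kept through replicates 2 and 3, where it was high, and its difference of 1.84 did not pass (limma, adjusted p = 0.71).

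Complement genes other than C1q showed a median of 0.037 over 9 genes, with 1 wholly above and 1 wholly below. C1ra, a protease that C1q activates, had 95.1 on T+O and 117, 94.1 and 130 on T+T, and Cd55, which restrains complement on cell surfaces, 39.9 against 29.0, 20.8 and 35.1. Of 19 lysosome genes, 4 lay wholly above and 3 wholly below, and the median was 0.090. The protease gene Ctsb was the highest at 0.68, with 105 on T+O and 139, 203 and 186 on T+T, and Acp5, an acid phosphatase, the lowest at -0.55. Endotoxin and cytokine genes (6 kept, 2 wholly above) had a median of 0.066, receptor signalling genes (11 kept, 5 wholly above, 1 wholly below) one of 0.22 (1 of these 5 was kept only through T+T), and MHC class II genes (4 kept, 1 wholly above) one of 0.20.

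Markers of other cells that a testis sample could hold were read in the same way, and none of their genes passed. All 4 kept neutrophil genes of 8 listed (Mpo, Camp, Elane and Csf3r) lay wholly above T+O, 1 of them kept only through T+T. Their summed scaled signal was 227 on T+O and 313 to 430 on T+T, of which Csf3r alone gave 128 and 182 to 245. These values take each gene by its brightest kept probe set, and weaker probe sets of the same genes, all under the filter, did not all follow. The other Mpo probe set (12.4 on T+O against 6.44, 11.9 and 7.71 on T+T) lay wholly below T+O. Of the weaker Csf3r probe sets, 1 lay wholly below T+O and 1 wholly above it. The neutrophil genes with no kept probe set had no common direction. S100a8 (18.6 on T+O against 11.5, 16.9 and 8.34 on T+T) and Ngp (10.8 against 8.28, 10.1 and 7.79) lay wholly below T+O. S100a9 lay wholly above T+O, and for Ltf T+O lay inside the T+T range. Neutrophils also express Lyz2 and Cd14. Of 6 kept B cell genes of 8 listed, 4 lay wholly above, but 3 of these 4 were kept only through T+T, which tilts the count and the sum (155 on T+O and 219 to 313 on T+T) upward. Of 4 kept T cell genes of 13 listed, 1 did, also kept only through T+T, with a sum of 149 against 161 to 216, and 0 of 7 listed NK cell genes were kept. The sum over 4 kept endothelial genes of 7 listed was 227 on T+O and 248 to 344 on T+T. Among them, Pecam1 had 45.4 on T+O and 61.8, 15.0 and 48.9 on T+T replicates 1, 2 and 3. Of the endothelial genes under the filter, Cdh5 lay wholly below T+O (24.5 against 17.0, 14.7 and 17.2). Kdr lay wholly above T+O, and for Tek T+O lay inside the T+T range. The sum over 5 peritubular myoid genes of 5 listed (1 kept only through T+T) was 431 on T+O and 520 to 536 on T+T. For 5 kept Leydig cell genes of 7 listed (1 kept only through T+T), the sum was 346 on T+O and 301 to 390 on T+T. There T+O lay inside the T+T range. For the 8 macrophage genes themselves the sum was 496 on T+O and 527 to 614 on T+T. The 614 is that of replicate 3, and it includes Lyz2, which was kept only through that array. The part of other cells in the macrophage values was not tested.

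**Figure D4:**
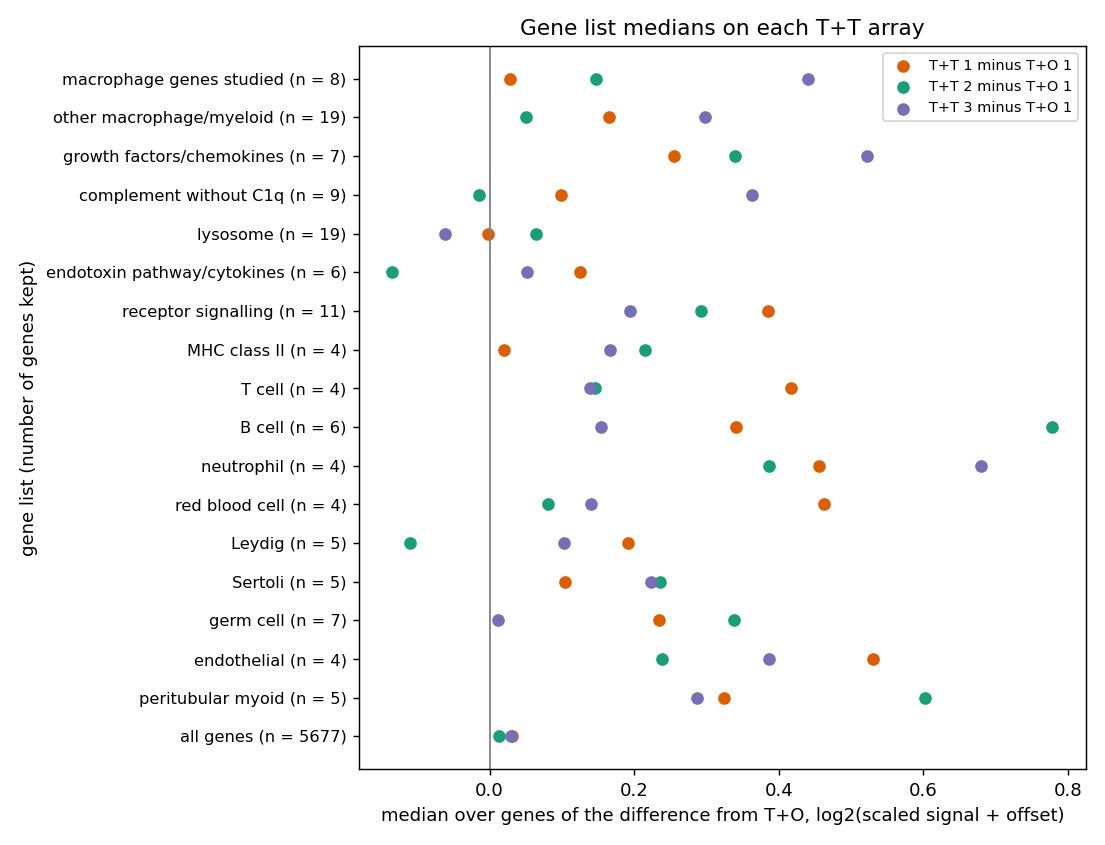
Median difference from the T+O array, on the scale log2(scaled signal + offset) (horizontal axis), over the kept genes of each list (vertical axis, number of genes in brackets), with 1 point for each T+T array. The macrophage genes run from 0.028 on replicate 1 to 0.44 on replicate 3, and the neutrophil list lies at 0.46, 0.39 and 0.68 on replicates 1, 2 and 3.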

How the data were processed

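The deposited table holds 1 signal intensity per probe set and array on a linear scale, for 12488 probe sets; the software with which the authors made these intensities is not stated in the labels, and no detection calls were used. Groups follow the sample titles; the number of T+T replicate 3 was given in accession order. The 66 control probe sets were removed, and scaling by 0.915 for the T+O array and by 1.15, 1.33 and 0.779 for replicates 1, 2 and 3 of T+T gave all arrays the same mean after trimming 2% at each end. T+T minus T+O was tested with limma 3.58.1 in R 4.3.3 (lmFit, two-sided eBayes with an intensity trend), and p-values were adjusted by Benjamini-Hochberg over the 7453 kept probe sets. The fit has 2 residual and 5.73 prior degrees of freedom, and the spread comes from the T+T arrays alone and is taken to hold for T+O. The number of arrays limits the precision. The procedure was tested on simulated data.

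Of the 12422 probe sets, 10833 carry a single symbol in the platform annotation, 396 carry several and 1193 are unnamed here. Symbols were updated by gene ID through a RefSeq table of GRCm38.p6, which held 10817 of the 10833. The members, lists and tests were chosen with earlier results of these data known. The rule for named genes took every probe set of the 10 genes, the highest and lowest gene of each list, and Lyz1, Csf1, Il34, Spi1, Itgam, Mrc1, Fcgr3 and Tyrobp where measured; of the lists, those on macrophage functions are named in part. Lists are described by counts and medians, with no set test. Alternatives were other scalings, offsets and filters, another reading of the groups, and leaving out each T+T array.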

Additional observations from a re-analysis of the deposited data

How the results depend on the processing

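No macrophage probe set passed the adjusted threshold under any alternative run (lowest limma adjusted p = 0.47). The count of all probe sets past it, 2, became 0 after quantile normalization, with no filter, without the intensity trend and in the withdrawn reading (replicates 2 and 3 of T+T taken as withdrawn), 5 after median scaling and also with no scaling, 6 with the larger offset (the 50th percentile), and 1 to 63 when 1 T+T array was left out (63 without replicate 1, 12 without replicate 2). Macrophage probe sets wholly above T+O, 3, became 1 with no scaling, 5 with no filter (more probe sets) and 4 to 7 with 1 T+T array left out (7 without replicate 1, as fewer arrays have to lie on 1 side); those wholly below, 1, became 4 with no filter, 0 under the filter at the 60th percentile and 4 in the withdrawn reading. At least 1.5-fold below became 1 with no filter and 1 in the withdrawn reading, and at least 1.5-fold above was 0 to 1 with 1 array left out. The median of 0.19 became -0.067 in the withdrawn reading and was 0.013 without T+T replicate 3. It was 0.24 with 1 probe set per gene, a choice made after seeing the data. For the matching pair, the median of 0.028 became -0.26 with no scaling and 0.30 under the filter at the 60th percentile.

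Of 105 single values under alternatives, 95 kept their direction and 10 reversed. In the withdrawn reading C1qa became -0.10, Lyz2 -0.39, Cd68 -0.31 and Cd14 0.24. A Csf1r probe set became 0.011 with the larger offset. With 1 T+T array left out, its values ran from -0.21 to 0.26 (without replicate 1), those of C1qc from -0.37 to 0.20 (without replicate 1), those of a C1qb probe set from -0.063 (without replicate 3) to 0.42, those of Lyz2 from -0.028 (without replicate 3) to 0.43 and those of Cd14 from -0.18 to 0.12 (without replicate 3). Except where stated, the cause was not tested. No paired analysis was possible because only 1 array is T+O, so the groups share fewer than 2 numbers. With 1 T+O array, its own spread was not measured, and low signals limit what can be read from Lyz2, which lay near the filter level, and from Adgre1 and Ptprc, which lay mostly far under it.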
